A study of Homo sapiens with 9 samples.

Results

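The subject is a set of 5 genes that encode enzymes removing methyl groups from lysine 4 of histone H3: KDM5A, KDM5B, KDM5C, KDM1A and KDM1B. They were taken by symbol from a table of 25370 gene symbols. RNA was sequenced from OCI-Ly1, an established human cell line of diffuse large B-cell lymphoma, after 48 h of exposure. One group received the vehicle DMSO, another JIB-04 at 150 nM, and the last JIB-04 at 500 nM. Each group had 3 libraries, 9 in all, and all were of the same line in the same medium (IMDM with fetal bovine serum). JIB-04 blocks histone demethylases of the Jumonji class. Nothing in the labels tells separate cultures from repeat preparations, and the p-values therefore speak of variation among these libraries alone, which may be technical.

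Methylation of histone H3 lysine 4 marks active promoters in its trimethyl form and enhancers in its monomethyl form. The KDM5 proteins are Jumonji-domain dioxygenases that need iron and 2-oxoglutarate, and they remove the trimethyl and dimethyl marks. KDM1A (LSD1) and KDM1B (LSD2) are flavin-dependent amine oxidases of another enzyme class, and they act on the dimethyl and monomethyl marks. KDM1A works in the CoREST and NuRD co-repressor complexes and is a known partner of transcription factors such as BCL6 and GFI1.

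Total counts ran from 28476845 to 44421096 in the DMSO libraries, 33479142 to 43396003 at 150 nM and 42351389 to 57198613 at 500 nM, so the 500 nM group was the deepest on the whole. Levels are given in CPM (counts of a gene relative to the library total, after TMM scaling of the totals), and 15089 genes passed the filter on low counts, all 5 demethylase genes among them. The marker sums that follow are CPM of the whole library total without TMM scaling, while the calls beside them used TMM scaling unless stated. The TMM factors were 0.958 to 0.971 in DMSO and 1.05 to 1.07 at 500 nM. TMM-scaled sums would thus be higher in DMSO and lower at 500 nM. Of 12 B-cell markers all were tested, and their summed level was 2425 to 2464 CPM in DMSO and 2200 to 2323 at 500 nM, where 2 rose (4 under total-count scaling, 1 without 500 nM replicate 2) and 7 fell. T-cell markers summed to 19.1 to 20.9 CPM in DMSO and 7.90 to 9.28 at 500 nM, where 3 of 5 tested genes fell, and TRAT1 had no count. Stromal and epithelial markers summed to 8.62 to 10.4 CPM in DMSO and 5.95 to 6.50 at 500 nM, where 2 of 4 tested genes, PECAM1 and EPCAM, fell. Myeloid markers summed to at most 3.13 CPM in any library, with MPO at 0 in all of them. Of all tested genes 26.3% were called higher and 25.6% lower at 500 nM. The part of these marker changes in the results was not tested.

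The comparisons asked whether the transcripts of the demethylase genes changed with dose. At 150 nM none of the 5 was called by edgeR's quasi-likelihood test at an adjusted p under 0.05, where 1.27% of all tested genes were called. DESeq2 and limma-voom also called 0, no member reached an unadjusted p under 0.05 by edgeR, and none had groups that did not overlap, against 13.7% of all tested genes. At 500 nM, KDM5B rose from a very low level, KDM1A fell by 28.1% and KDM5C rose by 12.3%, while KDM5A and KDM1B differed from DMSO by less than the spread between libraries. In RNA from a whole culture, fewer cells of a kind and less RNA per cell cannot be told apart. These 3 calls among 5 genes stand beside 52.0% of all tested genes, so the count is near the background at this dose. In single directions 26.3% of tested genes were called higher and 25.6% lower. Library values of 500 nM and DMSO did not overlap for the same 3 members, against 59.2% of all tested genes. Between 500 and 150 nM 3 of 5 were called, beside 46.5% of all tested genes, 2 of them higher (background 23.7%) and 1 lower (22.8%). The libraries of KDM5B and KDM1A did not overlap in that comparison, as for 55.0% of all tested genes, and those of KDM5C did.

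**Figure D1:**
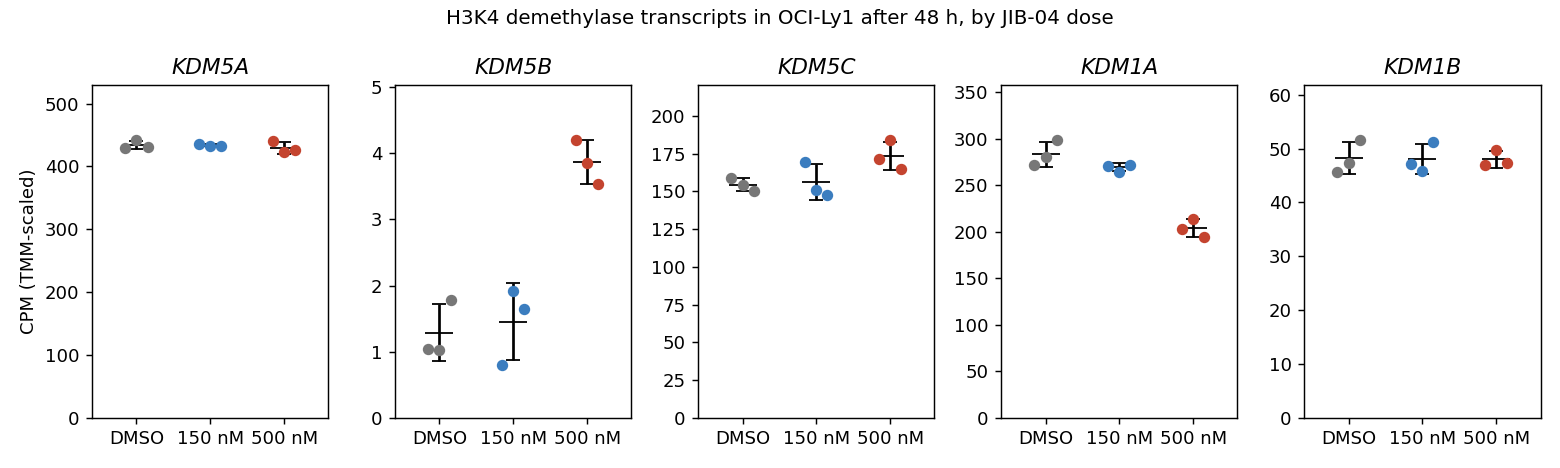
Level of each H3K4 demethylase transcript in CPM (TMM-scaled, linear axis from 0, a scale of its own for each gene) in the 3 DMSO, 3 150 nM and 3 500 nM libraries; points are libraries, bars the mean ± SD. KDM5B at 500 nM lies at 3.53 to 4.20 CPM, above every other library, and KDM1A at 195 to 214 CPM, below every other library.

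Within the 500 nM comparison the 5 genes were spread over a wide range. On the log2 scale KDM5B lay above 95.5% of all tested genes and KDM1A above 14.6%, with KDM5C above 63.6%, KDM5A above 47.8% and KDM1B above 48.3%. The median change of all tested genes was 0.01 under TMM scaling and 0.15 when libraries were scaled by total counts. Under total-count scaling 69.5% of called genes were higher at 500 nM, against 50.7% under TMM.

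KDM5B, also called JARID1B or PLU-1, is a transcriptional repressor that is highly expressed in several epithelial cancers and in testis. The promoter of this gene, which changed most of the 5, is shown as the 250 bases before its RefSeq start, at chr1:202808422-202808671 of GRCh38.p14 on the minus strand. Capitals mark the GC box GGGCGG, a binding motif of SP-family factors, on either strand.
KDM5B: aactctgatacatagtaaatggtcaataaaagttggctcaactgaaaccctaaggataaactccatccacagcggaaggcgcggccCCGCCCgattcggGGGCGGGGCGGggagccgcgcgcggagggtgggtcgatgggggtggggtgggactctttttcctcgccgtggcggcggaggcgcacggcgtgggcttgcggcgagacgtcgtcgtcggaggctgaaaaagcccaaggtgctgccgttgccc
The window held 3 such matches, of which a pair share a base, and its GC content was 64.0%. The motif occurred in 42.6% of 35116 RefSeq promoters of this length. Of the 5 promoters, that of KDM5C alone held no GC box. None of the 5 windows held CCAAT (32.0% of promoters), the stress-response motif TGATGNAA (3.14%), the cAMP response element TGACGTCA (1.65%), the AP-1 motif TGANTCA (6.57%), the E-box CACGTG (6.34%) or TATAAA (10.7%), searched on both strands. A match or its absence describes letters only.

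KDM5B had 45, 28 and 76 counts in the 3 DMSO libraries, or 1.04, 1.03 and 1.78 CPM. At 150 nM it had 34, 78 and 53 counts, or 0.796, 1.91 and 1.64 CPM. At 500 nM it had 253, 174 and 189 counts, or 4.20, 3.86 and 3.53 CPM. The lowest 500 nM library was thus above the highest DMSO and 150 nM libraries, while the DMSO and 150 nM values overlapped throughout.

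The mean of KDM5B rose from 1.28 ± 0.430 CPM in DMSO to 3.86 ± 0.333 at 500 nM (SD, n = 3 each). The log2 fold change was 1.57 ± 0.27 (SE, edgeR adjusted p = 1.57e-05), a 2.97-fold increase with a 95% interval of 2.03 to 4.35. A call of an increase of at least 2-fold applied to 7.33% of tested genes. Between 150 nM, at 1.45 ± 0.582 CPM, and 500 nM the log2 fold change was 1.42 ± 0.26 (adjusted p = 6.27e-05). The change at 150 nM against DMSO was 0.15 ± 0.29 (adjusted p = 0.918), with a 95% interval of 0.735- to 1.67-fold, so only larger changes lie outside the interval. Its log2 value ranged from -0.12 without 150 nM replicate 2 to 0.47 without DMSO replicate 3, and it was 0.45 without 150 nM replicate 1, not called in any of these.

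Because the counts were low, the counting error of single libraries was large. The exact Poisson 95% interval reached up to 2.23 CPM in the highest DMSO library and down to 3.04 CPM in the lowest 500 nM library, so these intervals do not meet. Reads carry no molecular identifiers here, so the intervals cover counting error only. With every library thinned to the smallest total, which removes the difference in depth, the log2 fold change at 500 nM was 1.39 (adjusted p = 0.0002).

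KDM5A (JARID1A, RBP2) was first described as a binding partner of the retinoblastoma protein, and its transcript was the most abundant of the KDM5 genes. It stood at 429, 441 and 431 CPM in DMSO, at 435, 432 and 433 CPM at 150 nM and at 440, 423 and 425 CPM at 500 nM. The groups overlapped in part: 2 of the 3 libraries at 500 nM lay below every DMSO and 150 nM library, and the other lay within the DMSO range. The change was between -6.24% and 6.62% at 150 nM and between -7.14% and 5.57% at 500 nM (95% intervals), so larger changes lie outside the intervals. The adjusted p was 0.999 and 0.811. Scaling by total counts turned the 500 nM value from -0.01 to 0.13 on the log2 scale (adjusted p = 0.0162), which is under the median of all genes with that scaling. A stretch of 182 exonic bases is shared with CCDC77 on the opposite strand in GENCODE 29 (GRCh38), and whether the counting used strand is not stated in the labels or processing notes. CCDC77 had a log2 fold change of 0.05 ± 0.08 at 500 nM (adjusted p = 0.618).

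KDM5C (SMCX, JARID1C) lies on the X chromosome and is known for its mutation in X-linked intellectual disability. Its levels were 159, 154 and 150 CPM in DMSO and 170, 151 and 148 CPM at 150 nM, which overlapped. At 500 nM it stood at 172, 184 and 165 CPM, all above DMSO but not all above the highest 150 nM library.

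The rise of KDM5C at 500 nM against DMSO was small, with a log2 fold change of 0.17 ± 0.06 (n = 3 per group, edgeR adjusted p = 0.0173), or 12.3% with a 95% interval of 3.38% to 22.0%. At 500 against 150 nM it was 0.15 ± 0.06 (adjusted p = 0.0344). At 150 nM against DMSO it was 0.02 ± 0.06 (adjusted p = 0.957), with an interval of -6.93% to 9.91%. The 500 nM call against DMSO was lost when DMSO replicate 2 was left out (adjusted p = 0.0505), when DMSO replicate 3 was (0.062), when 500 nM replicate 2 was (0.124), and with trends on transcript length removed (0.071). The call against 150 nM was lost when any of 4 libraries was left out, namely replicates 2 and 3 at 150 nM and replicates 1 and 2 at 500 nM (adjusted p = 0.0687 to 0.199), and with GC or length trends removed (0.0661 and 0.102). KDM5C has a close paralogue on the Y chromosome whose reads the counting could share.

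KDM1A demethylates histones as the catalytic subunit of CoREST, and inhibitors of it are studied in blood cancers. The 250 bases before its RefSeq start are shown because KDM1A was the member that fell, at chr1:23019218-23019467 of GRCh38.p14 on the plus strand, with the GC box in capitals.
KDM1A: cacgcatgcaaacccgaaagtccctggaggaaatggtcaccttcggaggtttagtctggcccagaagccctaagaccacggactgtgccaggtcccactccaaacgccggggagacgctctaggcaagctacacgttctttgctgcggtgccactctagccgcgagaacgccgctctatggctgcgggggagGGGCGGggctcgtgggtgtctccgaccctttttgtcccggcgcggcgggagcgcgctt
The window had the same GC content as that of KDM5B, 64.0%, and a single GC box.

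KDM1A stood at 272, 280 and 298 CPM in DMSO and at 271, 264 and 272 CPM at 150 nM. At 500 nM it stood at 203, 214 and 195 CPM. Every 500 nM library was below every library of the other groups, and the DMSO and 150 nM values overlapped at their edges.

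The mean of KDM1A fell from 283 ± 13.5 CPM in DMSO to 204 ± 9.57 CPM at 500 nM (SD, n = 3 each). The log2 fold change was -0.48 ± 0.05 (SE, edgeR adjusted p = 1.04e-08), a change of -28.1% with a 95% interval from -33.2% to -22.7%. Against 150 nM the change was -0.40 ± 0.05 (adjusted p = 2.87e-07). At 150 nM against DMSO it was -0.07 ± 0.05 (adjusted p = 0.674), with an interval of -11.8% to 2.18%. Under total-count scaling the 500 nM value was -0.34 (adjusted p = 2.7e-06), and with each library thinned to the same depth it was -0.48. CPM is a share of the library, so less KDM1A RNA per cell and a change in the rest of the RNA cannot be told apart.

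KDM1B, which is known for its role in setting DNA methylation in oocytes, had 45.7, 47.3 and 51.5 CPM in DMSO and 47.1, 45.8 and 51.2 CPM at 150 nM. At 500 nM it had 46.9, 49.8 and 47.3 CPM, within the range of the DMSO libraries. The 95% interval of the change was -10.1% to 10.3% at 150 nM and -10.1% to 10.1% at 500 nM (adjusted p = 0.986 and 0.942). Scaling by total counts moved the 500 nM value to 0.13 on the log2 scale (adjusted p = 0.115).

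**Figure D2:**
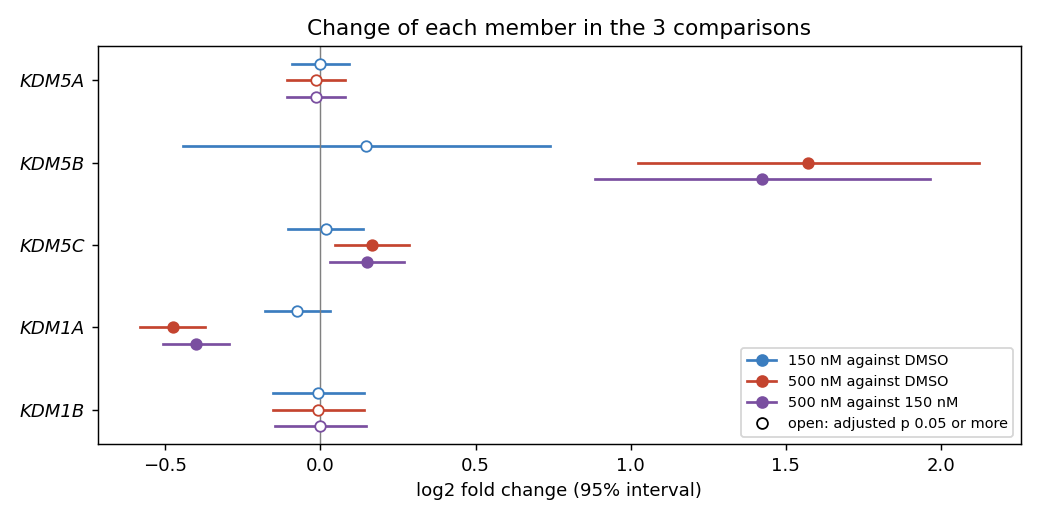
Log2 fold change of each gene (points) with its 95% interval (lines) in the 3 comparisons; filled points have an edgeR adjusted p under 0.05. KDM5B and KDM5C lie to the right of 0 and KDM1A to the left at 500 nM, and the intervals of KDM5A and KDM1B include 0 in every comparison.

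Levels of different genes were compared per kilobase of the longest GENCODE transcript. In DMSO the order was KDM1A with 92.6 ± 4.41 CPM per kilobase, KDM5A with 40.3 ± 0.623, KDM5C with 25.3 ± 0.723, KDM1B with 12.6 ± 0.785 and KDM5B with 0.124 ± 0.0416 (SD, n = 3). Each step of this order was larger than the spread between libraries. The median over tested genes with a known length was 6.90, so 4 members were above it and KDM5B was far below, above 7.56% of these genes. At 500 nM the order was the same, with KDM1A at 66.6 ± 3.13 and KDM5B at 0.374 ± 0.0322 CPM per kilobase, the latter above 13.6% of genes. With the length of all annotated exons of a gene in place of the longest transcript, the DMSO levels were 52.1, 35.9, 17.7, 8.61 and 0.0496 in the same order.

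The make-up of the set shifted at 500 nM. KDM1A made up 54.1% ± 1.15 of the summed level per kilobase in DMSO, 52.8% ± 0.468 at 150 nM and 45.0% ± 0.643 at 500 nM (SD, n = 3). KDM5A went from 23.6% ± 0.703 to 27.0% ± 1.10 and KDM5C from 14.8% ± 0.810 to 19.2% ± 0.445 between DMSO and 500 nM. Shares are parts of a whole, so a fall of KDM1A raises the others without any rise of their own. The level of KDM5A itself was 40.3 CPM per kilobase in DMSO and 39.9 at 500 nM. KDM5B, in spite of its increase, was 0.0722% ± 0.0223 of the sum in DMSO and 0.252% ± 0.0190 at 500 nM. The sum of the 3 KDM5 genes was 65.8 ± 0.840 CPM per kilobase in DMSO and 68.7 ± 1.58 at 500 nM, and that of KDM1A and KDM1B was 105 ± 5.19 and 79.2 ± 3.48. Shares and sums rest on the longest transcript and depend on that choice. With the length of all annotated exons, the 500 nM means were 37.4 for KDM1A and 8.58 for KDM1B. Those of KDM5A, KDM5C and KDM5B were 35.5, 19.9 and 0.149. By that length the KDM5 genes together exceeded KDM1A and KDM1B at 500 nM, the reverse of the order above.

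**Figure D3:**
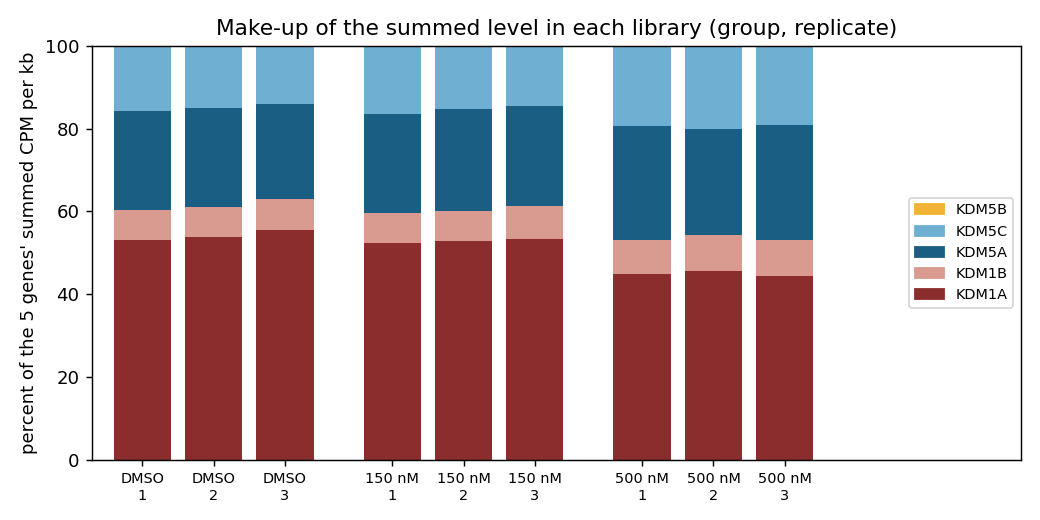
Share of each gene in the summed CPM per kilobase (longest transcript) of the 5 genes, in percent, 1 bar per library. The KDM1A share is 53.2% to 55.4% in the DMSO libraries and 44.5% to 45.7% at 500 nM, and KDM5B is too small to be seen.

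Ratios between members within a library do not depend on how libraries are scaled. The log2 ratio of KDM1A to KDM1B per kilobase was 2.89, 2.88 and 2.85 in DMSO, 2.84, 2.85 and 2.73 at 150 nM and 2.43, 2.42 and 2.36 at 500 nM. Its mean differed from DMSO by -0.47 at 500 nM and by -0.07 at 150 nM, and neither dose group overlapped with DMSO. The gap at 150 nM was narrow, with the highest 150 nM library at 2.8463 and the lowest DMSO library at 2.8496. Counting error was larger than this gap. The exact Poisson interval of KDM1B alone was 43.7 to 47.9 CPM in that 150 nM library. The log2 ratio of KDM5A to KDM1A was -1.16, -1.16 and -1.28 in DMSO, -1.13, -1.11 and -1.14 at 150 nM and -0.70, -0.83 and -0.69 at 500 nM. It was higher than in DMSO by 0.07 at 150 nM and by 0.46 at 500 nM, again with no overlap of either dose group with DMSO. The gap at 150 nM was again narrow, with the lowest 150 nM library at -1.144 and the highest DMSO library at -1.156. Of the 10 pairs, these 2 alone did not overlap with DMSO at 150 nM, against 9 at 500 nM. Each of the 9 held KDM5B, KDM5C or KDM1A, the members called at 500 nM, so the count restates those calls. The pairs share members and are not independent. Where groups do not differ, 3 against 3 libraries separate fully with a probability of 0.1, and the share over other gene pairs was not computed. The log2 ratio of KDM5A to KDM5B was 8.63, 8.69 and 7.86 in DMSO, 9.04, 7.76 and 7.99 at 150 nM and 6.65, 6.72 and 6.85 at 500 nM. That of KDM5A to KDM5C was 0.61, 0.70 and 0.70 in DMSO, 0.54, 0.70 and 0.73 at 150 nM and 0.54, 0.38 and 0.55 at 500 nM. These 4 differences of 500 nM from DMSO each had p = 0.1 in a two-sided exact permutation test (n = 3 per group), the smallest p that 3 against 3 libraries allow, as did the 150 nM differences of KDM1A to KDM1B and of KDM5A to KDM1A. Adjusted over 20 tests of 10 pairs at the 2 doses, each p was 0.182, so none passed. The ratio of KDM5A to KDM1B differed by -0.01 between 500 nM and DMSO (exact permutation p = 0.9).

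Other genes of the pathway were taken from 6 lists, chosen with earlier results of these data known. They held 84 tested genes. At 500 nM 22 of them rose and 26 fell, beside 26.3% and 25.6% of all tested genes called in each direction. At 150 nM 1 of the 84 was called by edgeR, beside 1.27% of all tested genes, 2 by DESeq2 and 0 by limma-voom. At an unadjusted p under 0.05 there were 11 by edgeR and 9 by limma-voom, and the share over all genes is not given here. The gene called by edgeR was INSM1, a neuroendocrine zinc-finger repressor that recruits KDM1A through a SNAG domain. It had 6, 12 and 7 counts in DMSO, 37, 29 and 33 at 150 nM and 226, 183 and 148 at 500 nM. Its log2 fold change was 1.91 ± 0.40 at 150 nM (adjusted p = 0.00676) and 3.94 ± 0.35 at 500 nM (adjusted p = 2.51e-10), from few counts.

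Among 17 tested partners of KDM1A, 7 rose and 7 fell at 500 nM, with a median log2 fold change of 0.04 against 0.01 for all tested genes. The deacetylase genes HDAC1 (-0.34 ± 0.05) and HDAC2 (-0.32 ± 0.05), whose products share the CoREST complex with KDM1A, fell, and the zinc-finger gene ZNF217 (0.40 ± 0.05) rose. Of the CoREST scaffold genes, named here after their values were seen, RCOR2 rose by 0.94 ± 0.17 and RCOR3 by 0.28 ± 0.08, and RCOR1 had -0.18 ± 0.09 (adjusted p = 0.0816). Of the transcription factor genes GFI1 and BCL6, likewise named after their values were seen, GFI1 rose by 0.38 ± 0.07 (adjusted p = 3.4e-05) and BCL6 had 0.04 ± 0.05 (adjusted p = 0.557). With total-count scaling 2 rather than 7 of these partners fell. Under TMM 82.4% of the list was called in either direction, beside 52.0% of all tested genes.

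NuRD, a chromatin-remodelling and deacetylase complex that KDM1A can join, had 11 tested subunit genes, of which 8 fell and 1 rose at 500 nM (median -0.26). The remodeller genes CHD3 (-0.55 ± 0.05) and CHD4 (-0.45 ± 0.05) fell. GATAD2B rose by 0.23 ± 0.08, a call lost when DMSO replicate 1 (adjusted p = 0.114) or 500 nM replicate 3 (0.145) was left out and in thinned libraries (0.0691). With total-count scaling 5 fell and 2 rose. Of all tested genes 25.6% were called lower and 26.3% higher under TMM. GLYR1, a nucleosome-binding cofactor of KDM1B, had -0.11 ± 0.06 (adjusted p = 0.129), and it was called lower with GC trends removed (adjusted p = 0.0339).

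The list of SIN3 subunits and other KDM5 partners had 3 of 18 genes higher and 5 lower at 500 nM (median 0.04). The called share was 44.4%, below the 52.0% of all tested genes. SIN3B (0.43 ± 0.08), a scaffold of the SIN3 deacetylase complex, and SAP30L (0.28 ± 0.08) rose. MORF4L1 (-0.55 ± 0.05), a chromodomain protein gene, and REST (-0.30 ± 0.07), the repressor of neuronal genes, fell. The genes that fell were 3 in number without DMSO replicate 3 or 500 nM replicate 3, and with total-count scaling 9 rose and 3 fell.

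The opposing enzymes, H3K4 methyltransferases and their subunits, had 5 of 21 genes higher and 4 lower (median 0.01). The called share was 42.9%, below the 52.0% of all tested genes. KMT2D (0.73 ± 0.08), an enhancer methyltransferase gene that is often mutated in this lymphoma, and SETD7 (0.55 ± 0.07) rose. PAXIP1 (-0.67 ± 0.06), a subunit of the KMT2C and KMT2D complexes, and WDR82 (-0.50 ± 0.05), a subunit of the SETD1 complexes, fell. With total-count scaling 9 of these genes rose. Of 16 readers of H3K4 methylation 6 rose and 2 fell (median 0.07). PHF2 (0.65 ± 0.08) and CCDC101 (0.49 ± 0.10), the older symbol of the SAGA subunit gene SGF29, rose. BPTF (-0.44 ± 0.05), a nucleosome-remodelling subunit, and DIDO1 (-0.20 ± 0.05) fell, the latter not called with total-count scaling (-0.06, adjusted p = 0.31), which left 1 reader lower. HDAC1, MORF4L1 and other abundant genes of these lists have processed pseudogenes that can take part of their reads.

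**Figure D4:**
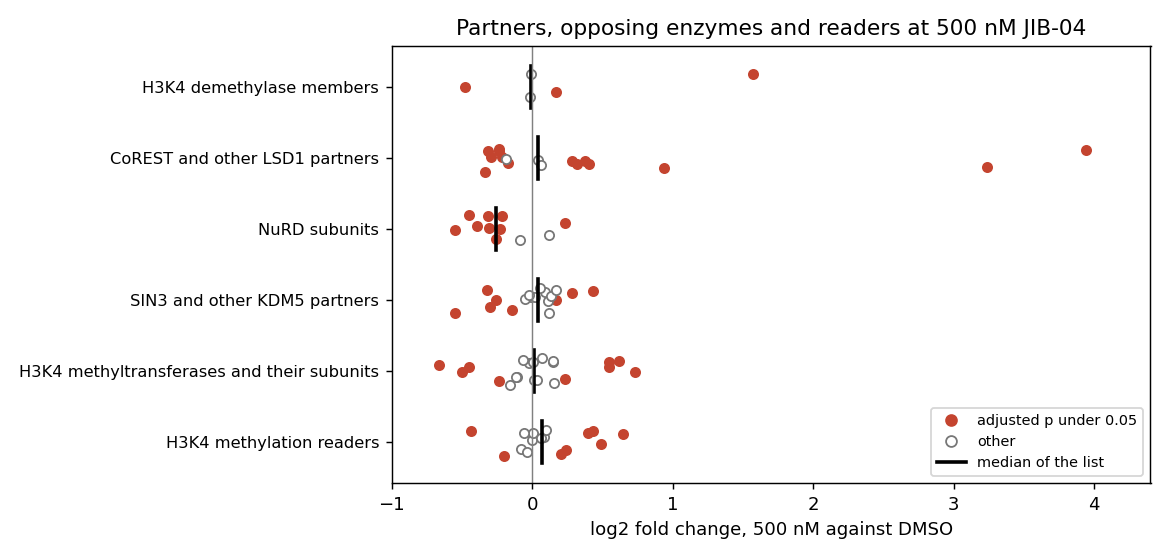
Log2 fold change at 500 nM against DMSO of every tested gene (points, spread vertically for legibility) of the demethylase set and of 5 related lists; black bars are medians, filled points have an adjusted p under 0.05. The NuRD median is -0.26 and the other medians lie between -0.01 and 0.07. INSM1 is the point farthest to the right.

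The genes most like each member were sought among 9854 named genes of at least 5 CPM, by Pearson's r of log2 CPM over the 9 libraries, which share their scaling and dose groups. For KDM1A they were CDCA7L (r = 0.994), RCSD1 (0.993) and SMIM20 (0.992), with log2 fold changes of -0.85 ± 0.07, -0.48 ± 0.05 and -0.47 ± 0.07 at 500 nM. For KDM5B they were KRCC1 (0.989), TMEM57 (0.984) and NAB1 (0.984), of which KRCC1 rose by 0.68 ± 0.10, less than KDM5B on the same scale. For KDM5C they were TMEM219 (0.977), STK25 (0.973) and EHD1 (0.964). For KDM5A (SMIM7, 0.929, ZNF669 and UBE4B) and KDM1B (FAM192A, 0.885, PNISR and CD99P1) likeness was lower, and none of these 6 genes was called at 500 nM with all 9 libraries under TMM scaling. SMIM7 (adjusted p = 0.0316) and ZNF669 (0.0387) were called lower when 500 nM replicate 1 was left out, and ZNF669 (0.0308) also when DMSO replicate 1 was. Under total-count scaling FAM192A (0.14, adjusted p = 0.0262) and PNISR (0.15, adjusted p = 0.0436) were called higher. All these genes were picked for following a member over the same 9 libraries, so their changes at 500 nM are no separate result. No chance level of r was computed for the best of 9854 genes.

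Across the alternative analyses KDM5B stayed between 1.39 and 1.89 and KDM1A between -0.51 and -0.34 on the log2 scale at 500 nM against DMSO, with every adjusted p under the threshold in the 21 alternatives run. KDM5A was called under total-count scaling alone, and KDM1B under none of the 21.

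**Figure D5:**
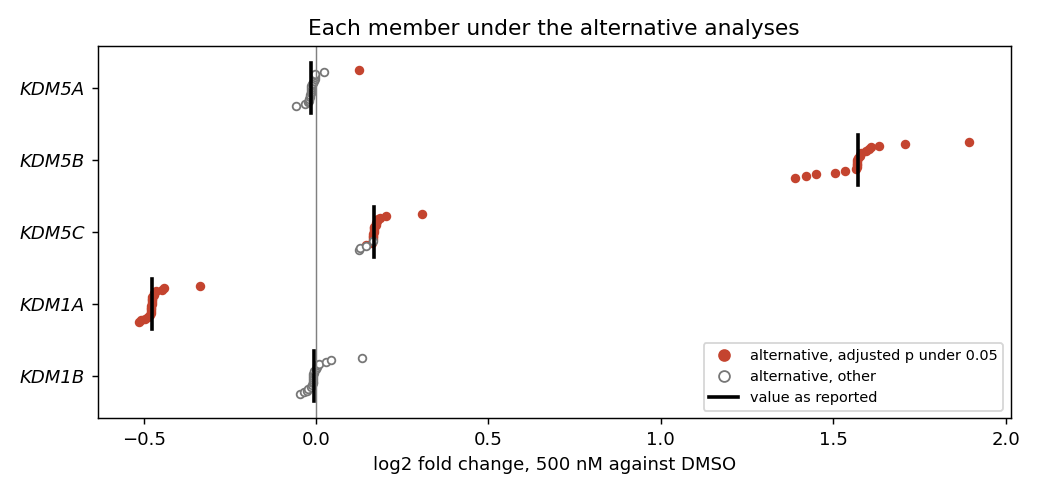
Log2 fold change of each gene at 500 nM against DMSO as reported (black bars) and under the 21 alternatives (points, ordered by value), filled where the adjusted p is under 0.05. KDM5B ranges from 1.39 to 1.89 and KDM1A from -0.51 to -0.34, and open points mark the alternatives in which KDM5C was not called.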

How the data were processed

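RNA from 9 libraries of OCI-Ly1 was analysed from the deposited table of raw counts per gene symbol, which the authors made from ribosomal RNA-depleted total RNA, per the labels' protocols. Per the submitters' processing notes, the tools were featureCounts 1.4.6 (Subread), TopHat2 2.0.14 and Bowtie2 2.2.6, and the builds hg19 and mm10, whose roles they leave out. The annotation and the use of strand were not stated. Groups and replicate numbers came from sample titles.

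Counts passed through filterByExpr at a minimum of 10 per library and 15 in total, were scaled by TMM and fitted to all 9 libraries with edgeR 4.0.16 (robust quasi-likelihood test) in R 4.3.3. Benjamini-Hochberg adjustment covered all 15089 genes tested, with a threshold of 0.05, and adjusted p-values are edgeR's unless another tool is named. The fit was tested on simulated data with known changes in a small part of the genes, as many raised as lowered. That setting does not test the choice of scaling. The unshrunk log2 fold change over the root of the F statistic gave each standard error. Alternatives were DESeq2 1.42.0, limma-voom (limma 3.58.1), other scalings and filters, fits of 6 libraries, a block for replicate number, each library left out in turn, the 20 most abundant genes left out, removal of lowess trends (span 0.3) on transcript GC content or length, and thinning to the smallest library. The length of all exons was added after the data were seen.

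Lengths and GC content came from GENCODE 29 transcripts (GRCh38), known for 95.5% of tested genes, and promoters from RefSeq (GRCh38.p14), matched by symbol for all 5 members. Of the list genes, 2 were matched through another symbol. The members and lists were chosen with earlier results of these data known. Named were all members, GLYR1, the 2 called genes of each list with the smallest adjusted p in each direction at 500 nM, and the 3 genes most like each member (log2 CPM with a prior count of 2). RCOR1, RCOR2, RCOR3, BCL6, GFI1, PECAM1 and EPCAM were added after their values were seen. Ratios between members were tested by exact permutation with SciPy 1.17.1. Libraries of the same group differed beyond sampling noise (chi-square per degree of freedom 6.60 to 16.1), so all were kept.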

Additional observations from a re-analysis of the deposited data

How the results depend on the processing

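Of 315 values (15 member results, 21 alternatives each), 303 kept their side of the threshold, 38 of them with a change of sign in values not called, at most 0.13 in size. KDM5A was turned and called higher by total-count scaling, at 0.13 against DMSO and 0.11 against 150 nM (500 nM). KDM5C at 500 nM against DMSO lost its call with length trends removed (0.13), and without single libraries it ranged from 0.12 to 0.20. At 500 against 150 nM it lost its call with GC trends removed (0.09) or length trends removed (0.12), and without single libraries it ranged from 0.11 to 0.21. The cause was not tested.

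The number of all genes called at 150 nM, 192, was 320 without a filter, 101 in the fit of 6 libraries, 308 with the replicate block, 352 with GC trends removed, 107 without DMSO replicate 2, and 545 or 98 when 150 nM replicate 1 or 2 was left out. No member was called at 150 nM in any of these.

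Same-numbered libraries of different groups correlated in their deviations at r = -0.052 to 0.104. Between DMSO and 150 nM each library correlated best with its own number (r = 0.104, 0.013 and 0.070). No same-numbered pair with 500 nM did so (r = -0.052 to 0.004). The labels do not say that the numbers pair libraries, so the main fit had no block and the block was run as an alternative. These correlations do not settle whether the numbers pair them. With the replicate block, KDM5B at 500 nM had a log2 fold change of 1.60 and KDM1A -0.48, and no member's call changed. Depth limits KDM5B most, with 28 to 78 counts in each DMSO and 150 nM library.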
